A study of Homo sapiens with 6 samples.

Results

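The genes and gene classes occupied by 82-kDa ChAT were compared with those occupied by SATB1 in SH-SY5Y cells exposed to oligomeric Aβ1–42. The members were all peaks of the 2 lists made after Aβ1–42 on chromosomes 1 to 22 and X. They were 6290 peaks for 82-kDa ChAT and 5817 peaks for SATB1, together 12107 of the 23953 peaks of the 4 lists of the study. Both lists were set against the 62062 annotated genes of these chromosomes, of which 19970 were protein-coding. SH-SY5Y is a human neuroblastoma line, and the methods of the study state that the cells stably expressed 82-kDa ChAT introduced from outside, so its level was not that of the parent line. Cells were differentiated for 3 d with retinoic acid and then received 100 nM Aβ1–42 oligomers, or Ham's F-12 medium as vehicle, for 4 h. Antibodies were an in-house serum against the C-terminus of ChAT, a part of the protein that its other forms also carry, and a commercial antibody to SATB1. There were 3 plates for each treatment and 1 library for each protein and treatment, so no difference below could be set against replicate error and no p-value was computed. Intervals are exact 95% Clopper-Pearson intervals. For shares of peaks they cover counting error over the peaks of 1 library, or of both where the 2 lists are pooled. For ratios of genes with both proteins they cover the count of genes only. There the expected number was held fixed, and overlapping genes that share a peak were counted as separate.

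Choline acetyltransferase (ChAT) synthesizes the neurotransmitter acetylcholine, and its 82-kDa form is a primate-specific variant that concentrates in the nucleus. SATB1 is a nuclear matrix protein that holds AT-rich stretches of chromatin, known as scaffold or matrix attachment regions, at the base of chromatin loops, and it recruits chromatin remodelling enzymes to them. Alu elements are short interspersed repeats with a very large number of copies in the human genome, dense in GC-rich genes and sparse in long neuronal genes.

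The lists differed in the kind of DNA they held before any gene was considered. An Alu match was found in 703 of the 6290 82-kDa ChAT peaks (11.2%, interval 10.4 to 11.98) and in 4366 of the 5817 SATB1 peaks (75.1%, interval 73.9 to 76.2). After vehicle the corresponding shares were 6.05% for 82-kDa ChAT and 5.77% for SATB1. The high Alu share was thus found in 1 of the 4 libraries, and whether it belongs to the protein, the treatment or that library cannot be told apart. Leaving out the Alu-matching peaks left 5587 peaks of 82-kDa ChAT and 1451 of SATB1, and several comparisons below are given again with these alone.

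Another feature was common to peaks of both proteins, noticed in the sequences of single peaks and then counted over all peaks. In many of them the beginning of the peak was repeated at its end as the reverse complement, so that a single strand could pair with itself. An end was the first or last 25 nt, and ends were called complementary if they held at least 8 nt in a row that paired. The examples below are peaks of no repeat kind, and capitals mark the paired runs (hg38, plus strand). The first is an 82-kDa ChAT peak that overlapped a SATB1 peak, in GYG1, which encodes the glycogen primer glycogenin, at chr3:149002372-149002511. The next is an 82-kDa ChAT peak in PRKCB, which encodes a protein kinase C and held no SATB1 peak, at chr16:23885923-23886046. The last 2 are SATB1 peaks in genes without an 82-kDa ChAT peak. They lay in RYR3, a calcium release channel of the endoplasmic reticulum, at chr15:33390834-33390957 and in F13A1, the A subunit of coagulation factor XIII, at chr6:6255577-6255721.
GYG1: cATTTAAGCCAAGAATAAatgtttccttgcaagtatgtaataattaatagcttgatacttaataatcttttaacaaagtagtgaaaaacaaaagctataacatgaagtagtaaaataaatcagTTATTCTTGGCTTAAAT
PRKCB: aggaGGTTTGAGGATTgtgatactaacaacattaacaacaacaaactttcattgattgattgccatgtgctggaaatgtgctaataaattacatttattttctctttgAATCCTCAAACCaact
RYR3: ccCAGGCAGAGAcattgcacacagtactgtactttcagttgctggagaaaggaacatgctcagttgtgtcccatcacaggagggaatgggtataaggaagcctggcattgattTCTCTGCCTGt
F13A1: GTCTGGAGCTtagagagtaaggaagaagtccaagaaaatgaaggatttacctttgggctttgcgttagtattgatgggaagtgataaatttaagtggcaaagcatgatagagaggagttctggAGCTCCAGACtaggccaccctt

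Over the whole lists, complementary ends were found in 1286 of 6290 82-kDa ChAT peaks (20.4%, interval 19.5 to 21.5) and in 399 of 5817 SATB1 peaks (6.86%, interval 6.22 to 7.54). Windows of the same length 1000 nt to either side of the peaks had them in 0.906% and 0.911%. Among SATB1 peaks the feature was nearly absent from those that matched Alu, at 1.15%, which was close to the 0.893% of their neighbouring windows. Alu-matching peaks of 82-kDa ChAT did carry it, in 9.25% (interval 7.21 to 11.6) against 0.640% of their windows. Peaks of no repeat kind had no Alu match, under 3 CATTC pentamers per 100 nt, no more than 50% of 51-mers found elsewhere in the genome (otherwise multi-copy) and were not self-repeating, as defined below. Among them the share was 23.6% for 82-kDa ChAT (1021 of 4331, interval 22.3 to 24.9). For SATB1 it was 35.3% (271 of 767, interval 31.9 to 38.8). The paired run had a median of 10 nt for 82-kDa ChAT and 11 nt for SATB1, and the longest had 24 nt and 21 nt. With a paired run of at least 10 nt the shares were 13.9% and 24.6%. The score did not divide the peaks for 82-kDa ChAT, where the share was 23.5% at or above the median score of the list and 23.6% below it, while for SATB1 it was 38.2% and 31.5%. After vehicle, peaks of no repeat kind had complementary ends in 17.9% for 82-kDa ChAT (interval 16.7 to 19.1) and in 8.14% for SATB1 (interval 6.83 to 9.60). Among peaks of no repeat kind every list thus exceeded its neighbouring windows, and SATB1 after Aβ1–42 had the highest share, whereas over whole lists 82-kDa ChAT after Aβ1–42 had the highest.

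**Figure D1:**
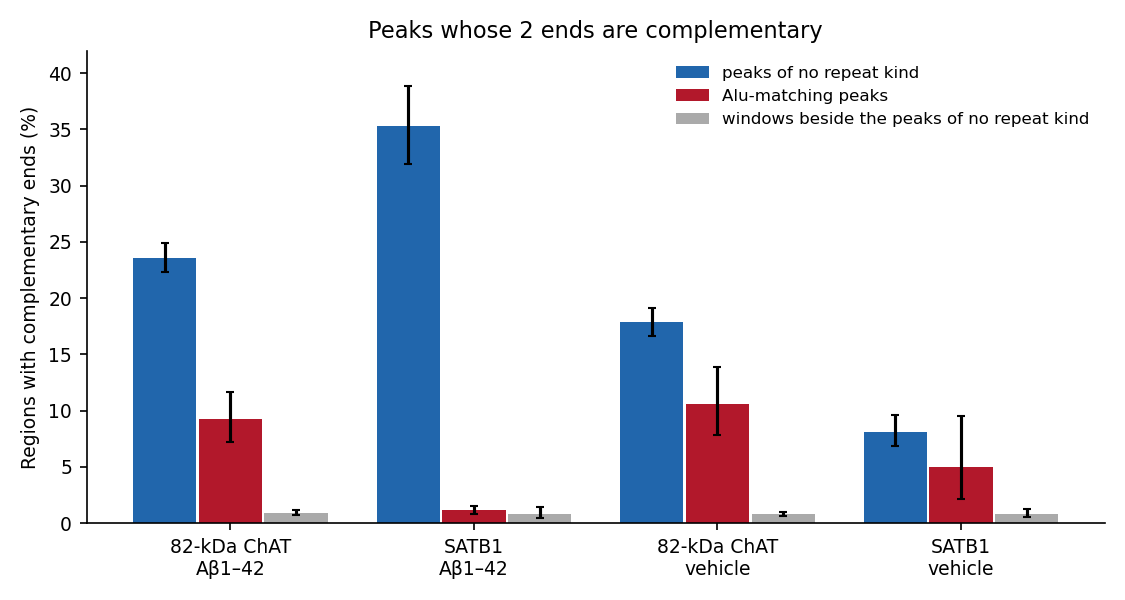
Percent of regions with complementary ends, for peaks of no repeat kind, Alu-matching peaks and the windows beside the peaks of no repeat kind, in each of the 4 lists. Bars are shares and whiskers exact 95% intervals for counting error. Peaks of no repeat kind reached 23.6% and 35.3% after Aβ1–42, while their neighbouring windows stayed near 1%.

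Of the 19970 protein-coding genes, 2231 (11.2%) held an 82-kDa ChAT peak and 2410 (12.1%) held a SATB1 peak. Only 82-kDa ChAT was found in 1570 genes (7.86%), only SATB1 in 1749 (8.76%), and both in 661 (3.31%). Without Alu-matching peaks these numbers were 1737, 290 and 218. Multi-copy peaks made up 58.8% of the SATB1 list and 12.5% of the 82-kDa ChAT list. The gene of many SATB1 peaks is therefore uncertain. Of the genes with an 82-kDa ChAT peak, 29.6% also held SATB1, and of those with a SATB1 peak 27.4% also held 82-kDa ChAT. Among all 62062 genes, long non-coding RNAs and pseudogenes included, 890 held both, and 2431 held 82-kDa ChAT alone. The number with SATB1 alone was also 2431.

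Most of this overlap was also expected from gene length alone. If the 2 proteins had fallen on protein-coding genes independently and without regard to length, 269 genes would have held both, and the observed 661 were 2.46 times that number. Within 20 classes of genes of like length, 591 were expected and the ratio was 1.12 (interval 1.04 to 1.21). Over all genes the ratio was 5.01 without length classes and 1.21 (interval 1.13 to 1.29) with 20 classes. It continued to fall as the classes became finer, from 1.31 with 10 classes to 1.16 with 40 and 1.12 with 100, so the size of the excess depended on how finely length was matched. Genes of 1 class still differed in length, which by itself raises the number with both, so a ratio slightly above 1 was not read as more than length. Peaks without an Alu match had the higher ratios. With these peaks alone 218 protein-coding genes held both, 1.55 times the length-based expectation (interval 1.36 to 1.77). The lists made after vehicle shared 478 protein-coding genes, 1.70 times the expectation for those lists (interval 1.55 to 1.85). Without Alu-matching peaks the vehicle lists shared 447, 1.78 times the expectation (interval 1.62 to 1.95). With all peaks the lists after Aβ1–42 thus had more genes in common than those after vehicle and a lower ratio, whereas without Alu-matching peaks they had fewer in common and the intervals of the ratios overlapped. The SATB1 lists differed in size, with 5817 peaks after Aβ1–42 (1451 without an Alu match) and 2792 after vehicle. Whether list size affects the ratio was not tested.

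Most very long genes held both proteins. Of the 71 protein-coding genes of at least 1000 kb, 92.96% held 82-kDa ChAT, 87.3% held SATB1 and 57 (80.3%) held both, against 57.7 expected. Among the 5114 genes under 10 kb, 1.29% held 82-kDa ChAT, 0.782% held SATB1 and 2 held both. The density of peaks had another course. 82-kDa ChAT fell from 2.69 peaks per Mb of gene in genes under 10 kb to 1.79 in genes of at least 1000 kb. SATB1 had 1.63 peaks per Mb in the shortest genes, 3.02 in genes of 10 to 30 kb and 2.96 in genes of 30 to 100 kb, and then declined to 1.42 in the longest. Density of Alu copies had the same course, at 343, 610 and 616 copies per Mb in these 3 classes and 209 in the longest. SATB1 peaks that matched Alu numbered 3.09 to 4.91 for every 1000 Alu copies of the gene in all 6 length classes. SATB1 peaks without an Alu match lay between 0.365 and 0.570 per Mb throughout.

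**Figure D2:**
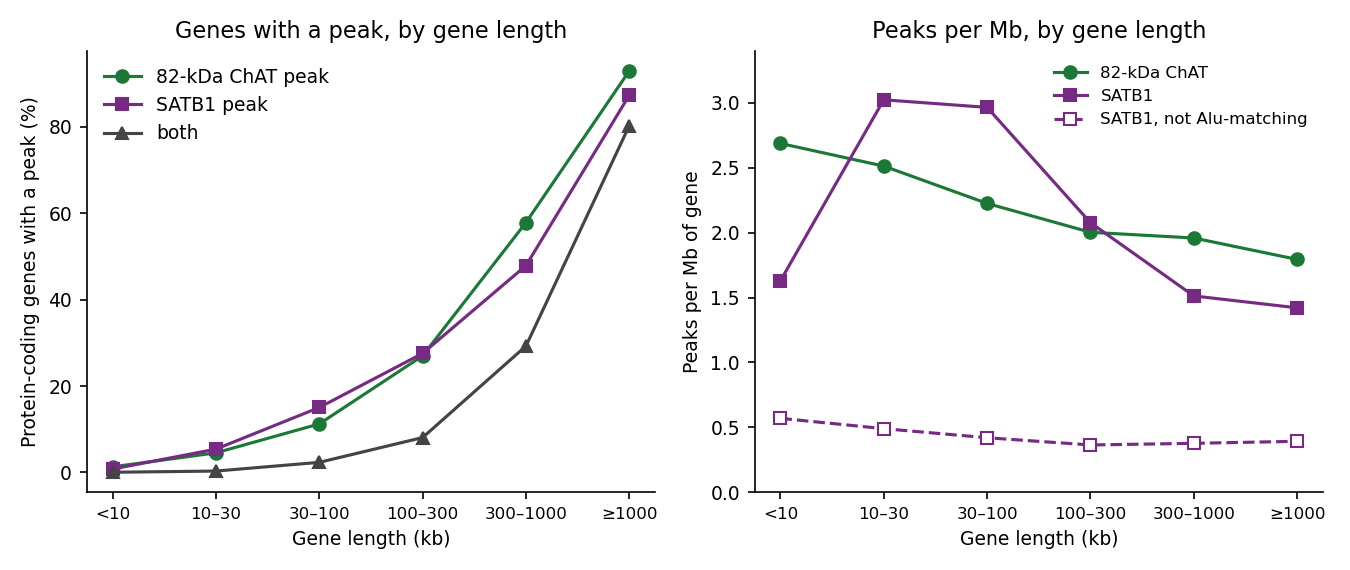
Left, percent of protein-coding genes with an 82-kDa ChAT peak, a SATB1 peak or both, in 6 classes of gene length. Right, peaks per Mb of gene in the same classes, with SATB1 peaks that do not match Alu as open squares. Occupancy by each protein rises from about 1% to about 90%, while SATB1 density is highest in genes of 10 to 100 kb.

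Genes with only SATB1 were rich in Alu. Their median length was 77.3 kb and their median Alu density 653 copies per Mb. Genes with only 82-kDa ChAT had a median length of 95.7 kb and 365 copies per Mb. Genes with neither had a similar median density (363 copies per Mb) but a median length of 19.9 kb. Pooled over the DNA of these genes, the densities were 357 copies per Mb with only 82-kDa ChAT and 476 with neither. Genes with both had a median of 240 kb. The difference in Alu density remained at like length, since genes of 30 to 100 kb had a median of 772 copies per Mb with SATB1 only, 767 with both, 537 with 82-kDa ChAT only and 511 with neither. In genes of 300 to 1000 kb it was narrow, at 244 copies per Mb with SATB1 only and 222 with 82-kDa ChAT only. When the genes of 30 to 300 kb were divided by Alu density into 5 groups of like size, SATB1 had 0.968 peaks per Mb in the lowest group and 4.86 in the highest, whereas 82-kDa ChAT stood at 2.16 and 2.58. Among the peaks of both lists the share of 82-kDa ChAT went from 69.1% (interval 65.1 to 72.9) in the lowest group to 34.7% (interval 31.6 to 37.9) in the highest. SATB1 peaks without an Alu match were 0.435 and 0.427 per Mb in the same groups.

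The peaks themselves differed by the kind of gene. In genes with SATB1 only, 1582 of 1858 SATB1 peaks matched Alu (85.1%, interval 83.4 to 86.7). In genes with both it was 680 of 929 (73.2%, interval 70.2 to 76.0). For 82-kDa ChAT the corresponding shares were 13.7% in genes with 82-kDa ChAT only and 13.2% in genes with both. Median GC content was 42.7% and 41.8% in these 2 kinds of gene for 82-kDa ChAT, and 52.6% and 52.1% for SATB1. Along genes of at least 10 kb peaks were spread over the whole gene, with SATB1 lowest and 82-kDa ChAT highest at the 3′ end. When each gene was cut into 4 equal parts, the parts held, from 5′ to 3′, 24.5%, 24.9%, 23.7% and 26.9% of 82-kDa ChAT peaks and 26.3%, 25.9%, 25.6% and 22.3% of SATB1 peaks.

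The chromosomes richest in Alu followed the same division. Chromosome 19, which has the most Alu copies (882 per Mb), had 169 peaks of 82-kDa ChAT and 272 of SATB1, a share of 82-kDa ChAT of 38.3% (interval 33.8 to 43.0) against 52.0% over all peaks. Chromosome 17, with 633 Alu copies per Mb, had a share of 42.6% (interval 38.5 to 46.7). Chromosome 14 had 59.2% and chromosome 4 58.4%, with 313 and 265 copies per Mb. Low Alu density did not always go with a high share, since chromosome 13 (234 copies per Mb) and chromosome X (280) each had 53.5% and chromosome 9 (323.5) had 48.7%. Without Alu-matching peaks, chromosome 19 had 129 peaks of 82-kDa ChAT and 49 of SATB1. That share of 72.5% (interval 65.3 to 78.9) was still below the 79.4% over all such peaks. This was not particular to chromosome 19. Also below were chromosomes 10 (72.4%, interval 67.3 to 77.0), 5 (74.6%, interval 70.2 to 78.7) and 1 (75.1%, interval 71.8 to 78.3). These had 382, 292 and 379 Alu copies per Mb. Chromosome 7 had 3.30 peaks per Mb of 82-kDa ChAT, the highest of the 23 chromosomes, and 3.01 of SATB1, below chromosomes 19 (4.64) and 17 (4.04). SATB1 peaks without an Alu match were also densest on chromosomes 19 (0.836 per Mb), 17 (0.829) and 7 (0.797). All densities are per Mb of the reference genome. The copy number of each chromosome in these cells was not measured, and its part in the densities was not tested.

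**Figure D3:**
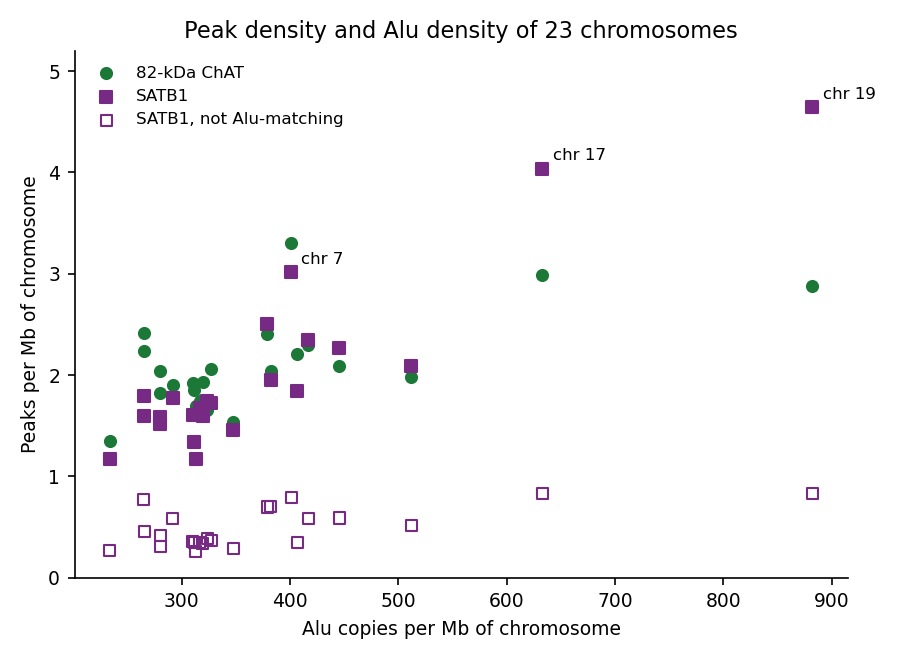
Peaks per Mb of chromosome for both proteins against Alu copies per Mb, with 1 point for each of 23 chromosomes and open squares for SATB1 peaks that do not match Alu. SATB1 reaches 4.64 peaks per Mb on chromosome 19, where 82-kDa ChAT has 2.88.

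By gene type, the share of 82-kDa ChAT was 49.3% of 5460 peaks in protein-coding genes (interval 48.0 to 50.6), 55.0% in long non-coding RNA genes (interval 52.7 to 57.2) and 53.4% outside all genes (interval 52.0 to 54.8). Without Alu-matching peaks the order changed, and the share was 81.7% in protein-coding genes, 82.1% in long non-coding RNA genes and 76.2% outside genes. Peaks of SATB1 that did not match Alu were thus more often outside genes than those of 82-kDa ChAT.

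Functional classes of protein-coding genes were compared by the share of 82-kDa ChAT among the peaks of both lists, each peak counted once. The base was the 49.3% of all protein-coding genes. Of 23 classes, the interval lay above the base in 1 and below it in 1, and it included the base in 21. Intervals at this level miss their true value in about 1.15 of 23 classes by counting error alone. Most classes were therefore not distinguishable from all genes at this number of peaks, and the classes below are given by their role.

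Axon guidance ligands and receptors, which steer growing axons, were the class above the base. They held 32 peaks of 82-kDa ChAT and 15 of SATB1, a share of 68.1% (interval 52.9 to 80.9). Of 72 genes, 10 held only 82-kDa ChAT, 4 held only SATB1 and 8 held both. ROBO2, a receptor for Slit ligands, had 5 peaks of 82-kDa ChAT and 2 of SATB1, and its paralogue ROBO1 had 4 and 1. The plexin PLXNA4, a semaphorin receptor, also had 4 and 1, and the ephrin receptors EPHB1 and EPHA6 each had 2 of both. The class had 215 Alu copies per Mb against 435 over all protein-coding genes. Without Alu-matching peaks, 32 peaks of 82-kDa ChAT and 4 of SATB1 remained, a share of 88.9% (interval 73.9 to 96.9), which included the 81.7% of all protein-coding genes. The class was also no longer above the base with peaks at or above the median score, without multi-copy peaks, or with genes counted in place of peaks.

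Kinases of the MAP kinase cascade, which carries signals from the cell surface and from stress, were the class below the base. They held 5 peaks of 82-kDa ChAT and 15 of SATB1, a share of 25% (interval 8.66 to 49.1). MAP3K13 held 3 SATB1 peaks and MAPK6 held 2, all Alu-matching and with no 82-kDa ChAT peak. MAP2K5 held 1 peak of 82-kDa ChAT and 2 of SATB1, MAPK8, which encodes a JNK kinase, held 1 of each, and MAP2K4, which acts on JNK kinases, held 1 of 82-kDa ChAT only. Without Alu-matching peaks there were 5 of 82-kDa ChAT and 1 of SATB1. The share was then 83.3%, against 81.7% for all protein-coding genes. With peaks at or above the median score the interval of this class included the base. Cell death regulators held 4 peaks of 82-kDa ChAT and 10 of SATB1 (28.6%, interval 8.39 to 58.1, which included the base), and 3 of each without Alu-matching peaks. There the caspase gene CASP10 held 2 Alu-matching SATB1 peaks, and CASP9 and the survival gene BCL2 each held 1 peak of 82-kDa ChAT.

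Neuronal adhesion molecules, which join axons, glia and synapses, held more peaks than any other class and also covered the most DNA, at 35.7 Mb. They held 60 peaks of 82-kDa ChAT and 61 of SATB1 (49.6%, interval 40.4 to 58.8). Per Mb this was 1.68 and 1.71, below the 2.07 and 2.13 of all protein-coding genes. Of the 73 genes of the class 13 held only 82-kDa ChAT, 10 only SATB1 and 22 both. Single genes of this class differed widely. NTM, a GPI-anchored adhesion molecule of 966 kb, held 5 peaks of 82-kDa ChAT and none of SATB1. CNTNAP2, a neurexin-like protein and one of the longest human genes at 2305 kb, held 4 and 13, and 11 of its SATB1 peaks matched Alu. TENM2, a teneurin, held 5 and 3. Cadherins and protocadherins held 24 and 23 peaks. In that class 41 of 102 genes were counted as SATB1 only because the nested protocadherin genes share their peaks, so the number of genes has no independent meaning there. CDH18 held 4 peaks of 82-kDa ChAT and 2 of SATB1, CDH12 held 2 and 4, and FAT3 held 3 and none.

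Among genes of synaptic transmission, no class stood apart from all genes. Glutamate receptors held 16 peaks of 82-kDa ChAT and 13 of SATB1 (55.2%, interval 35.7 to 73.6), with GRIK2, a kainate receptor subunit, and the delta receptor subunit GRID1 each at 3 and 1. GRIA3, an AMPA receptor subunit, held no 82-kDa ChAT and 2 peaks of SATB1. GABA and glycine receptors held 7 and 5. Synaptic scaffold and vesicle release genes held 37 and 34 (52.1%, interval 39.9 to 64.1). In that class the scaffold gene MAGI2 held 5 and 3, and UNC13C, which primes synaptic vesicles, held 3 and none. DLG2, a scaffold of the postsynaptic density, held 1 and 4. Genes of cholinergic synthesis, transport and reception, the system in which ChAT acts as an enzyme, held 2 and 3. Both peaks of 82-kDa ChAT lay in the muscarinic receptor gene CHRM3, and CHRNA7, CHRM5 and CHRNB3 each held 1 Alu-matching SATB1 peak. Neither CHAT nor SATB1 held a peak of either protein after Aβ1–42.

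Calcium and sodium channels held 19 peaks of 82-kDa ChAT and 9 of SATB1 (67.9%, interval 47.6 to 84.1), and the calcium channel gene CACNA1A held 3 and 1. Potassium channels held 22 and 18 (55.0%, interval 38.5 to 70.7). KCNMA1, a calcium-activated channel, held 3 peaks of 82-kDa ChAT and no SATB1, and KCNH1 held 1 and 3. Solute carriers, which move metabolites and ions across membranes, held 40 and 61 (39.6%, interval 30.01 to 49.8), and there SLC39A11, of a family of zinc transporters, held 2 and 4. Nuclear receptors, the ligand-gated transcription factors, held 14 and 5 (73.7%, interval 48.8 to 90.9). Their leading genes RORA and RARB, the latter a retinoic acid receptor, each held 3 peaks of 82-kDa ChAT and none of SATB1.

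Chromatin remodelling and histone modification genes held 28 peaks of 82-kDa ChAT and 32 of SATB1 (46.7%, interval 33.7 to 60.0). All 32 SATB1 peaks matched Alu, including 2 each in the histone demethylase gene KDM2A and in SMARCA4, which encodes the ATPase of a remodelling complex, neither of which held 82-kDa ChAT. The histone deacetylase gene HDAC4 and the arginine methyltransferase gene PRMT8 each held 3 peaks of 82-kDa ChAT, none Alu-matching, and no SATB1. Without Alu-matching peaks the class held 23 and 0. An interval of 85.2 to 100% made it the only class above the base of 81.7% for those peaks. Here too about 1.15 of 23 intervals would miss their true value by counting error alone. Nuclear receptors (11 and 0) and DNA repair genes (8 and 0) also kept no SATB1 peak, with intervals that included the base. Nuclear matrix and architectural proteins, the group to which SATB1 itself belongs, held 8 and 12, with CUX1 at 1 and 4 and the cohesin subunits STAG1 at 1 and 3 and STAG2 at 1 and 2. Numbered zinc finger genes held 52 and 58 (47.3%, interval 37.7 to 57.0). DNA repair genes held 10 and 12. Ribosomal proteins (2 and 4), complex I and proteasome genes (3 and 4) and olfactory receptors (9 and 6) had too few peaks to be placed.

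**Figure D4:**
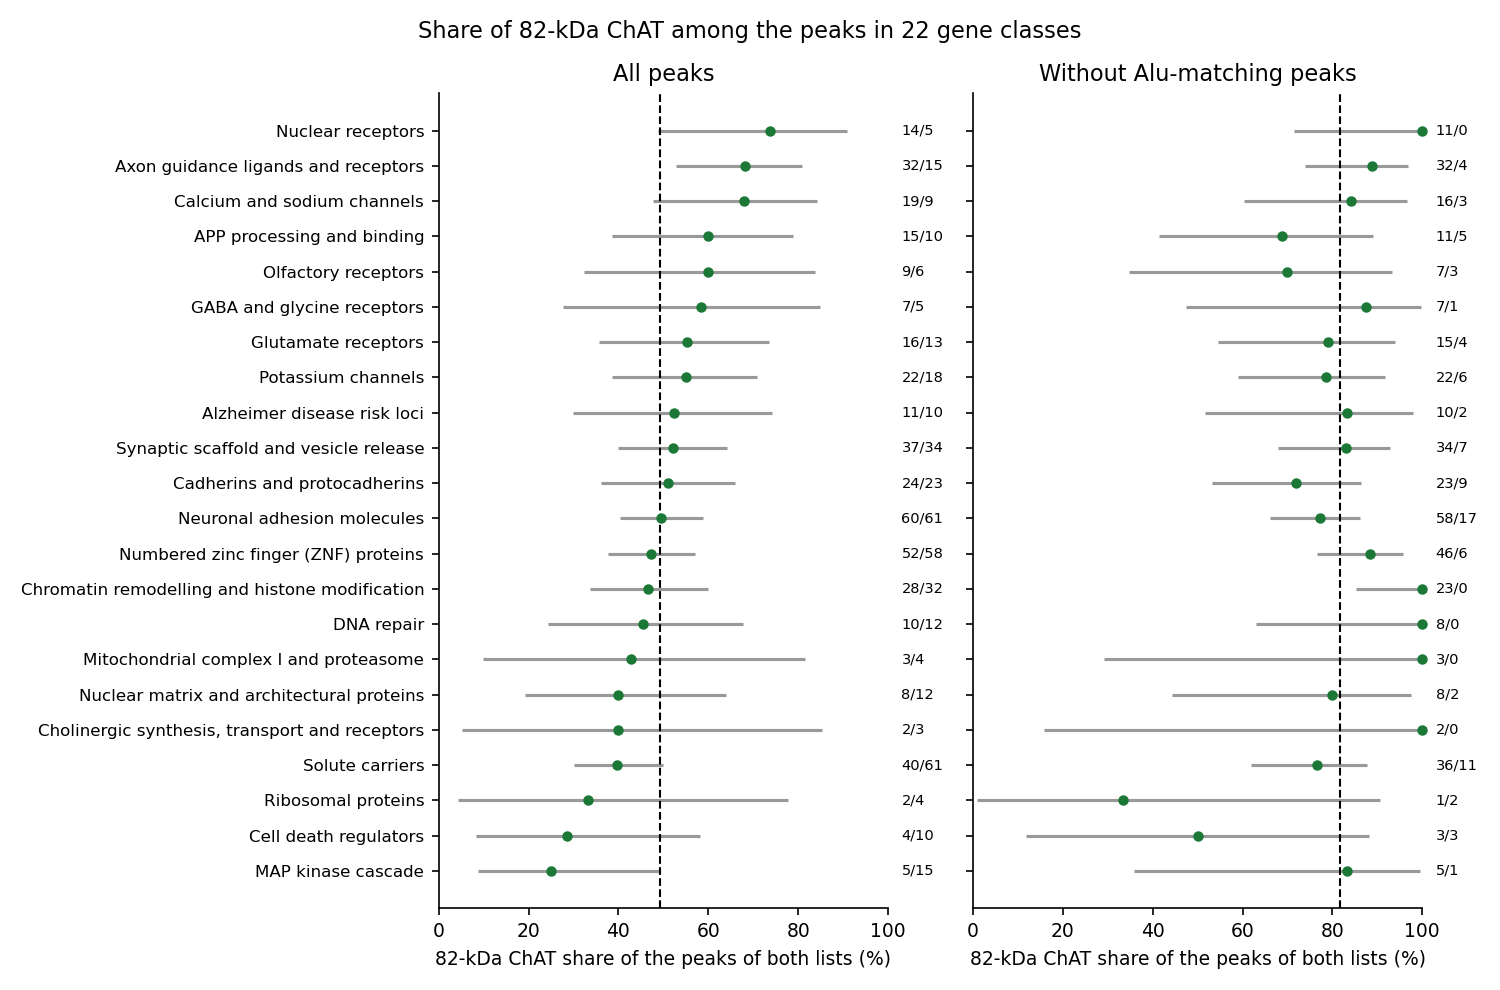
Share of 82-kDa ChAT among the peaks of both lists in 22 of the gene classes, with all peaks on the left and without Alu-matching peaks on the right. Points are shares, lines exact 95% intervals for counting error, dashed lines the share over all protein-coding genes (49.3% and 81.7%), and the numbers at the right of each panel the peaks of 82-kDa ChAT and SATB1. On the left the interval of axon guidance lies above the dashed line and that of the MAP kinase cascade ends just below it, at 49.1%, and on the right that of chromatin genes lies above it.

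Genes tied to Alzheimer disease were taken as 2 wider classes, of 33 APP-related genes and 21 risk loci, and as the single genes that the study names. APP processing and binding genes as a class held 15 peaks of 82-kDa ChAT and 10 of SATB1 (60.0%, interval 38.7 to 78.9), and risk loci 11 and 10 (52.4%, interval 29.8 to 74.3). MAGI2 held 5 and 3, all in introns. GAB2, an adaptor of growth factor signalling, held 2 peaks of 82-kDa ChAT at scores of 63.8 and 93.7 and 1 of SATB1 at 68.6, all in intron 1 and none Alu-matching. APP, which encodes the precursor of Aβ, held 1 peak of each protein. Its SATB1 peak lay within the Alu copy used as the query, so its match was fixed in advance. In EFNA5, APBB2 and PRUNE2 each protein had 1 intronic peak, and the SATB1 peak matched Alu in all 3. MTHFD1L held 1 peak of 82-kDa ChAT in intron 19 and 2 Alu-matching SATB1 peaks in introns 15 and 19. In NAE1, which encodes a subunit of the enzyme that activates NEDD8, the division was the other way, with an Alu-matching 82-kDa ChAT peak in intron 6 and a SATB1 peak without a match. The α-secretase gene ADAM10 and the related ADAM12 held 1 peak of 82-kDa ChAT each and RTN1 held 2, with no SATB1. APBB1 held 1 SATB1 peak alone. No peak of either protein touched ADAM17, APBA2, APPBP2, BIN1 or CR1. These counts differ in part from the study, which lists an 82-kDa ChAT peak after Aβ at the promoter of APBA2. Only peaks that touched the gene were counted here, and whether this accounts for APBA2 was not tested. The study also names BIN1 and CR1, without giving a protein or treatment for them. For NAE1 it gives another intron number for 82-kDa ChAT and lists no SATB1 peak.

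Single genes at the extremes carried several peaks of 1 protein. Ranked by 82-kDa ChAT peaks without SATB1, with ties going to the shorter gene, the first 8 protein-coding genes were STS, NTM and DPP6 with 5 each, SKAP2, PRKCB, TSHZ2 and EXOC6B with 4 each and NXF2B, 1 of 35 such genes with 3. Of their 34 peaks 1 matched Alu. DPP6, an auxiliary subunit of potassium channels on chr7:153748133-154894285, also held 6 peaks of 82-kDa ChAT and 2 of SATB1 after vehicle. STS, steroid sulfatase on chrX:7147237-7804358, held 5 and 2 after vehicle. Their lack of SATB1 thus concerned the list after Aβ1–42. The 3 peaks in NXF2B were multi-copy, which leaves their assignment to this gene uncertain. Ranked by SATB1 peaks without 82-kDa ChAT in the same way, the first 8 genes were RYR3 and RABGAP1L with 5 each and VMP1, F13A1, JAK1, MYO1D, AOPEP and BABAM2, 6 of the 8 such genes with 4. Of their 34 peaks 29 matched Alu. A SATB1 peak in VMP1 and another in BABAM2 had an identical run of 130 nt. With 58.8% of all SATB1 peaks multi-copy, the assignment of such peaks to these genes is also uncertain. JAK1 encodes a cytokine receptor kinase and MYO1D a myosin motor. Only AOPEP, with 2, held a SATB1 peak after vehicle. These genes were the tail of a long series, since 1337 genes held a single 82-kDa ChAT peak without SATB1 and 1531 a single SATB1 peak without 82-kDa ChAT.

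Genes with both were ranked by the smaller of their 2 counts, with ties going to the shorter gene, and the first 8 were PTPRN2, MACROD2, DMD, CNTNAP2, TTC34, HYDIN, HIVEP3 and GALNT17. PTPRN2, a receptor-type tyrosine phosphatase of secretory vesicles at chr7:157539056-158587823, held 6 peaks of 82-kDa ChAT and 8 of SATB1, of which 1 matched Alu. After vehicle it held 23 and 8. In DMD, the dystrophin gene, the counts were 4 and 5 with 2 Alu matches, and in MACROD2, an ADP-ribose hydrolase, 4 and 5 with all 5 SATB1 peaks Alu-matching. TTC34 held 3 and 3 in a single intron, and 5 of the 6 were self-repeating. HYDIN has a near-identical partial copy in the genome, and 5 of its 6 peaks were multi-copy. A gene with both seldom had both in 1 place. The nearest peaks of the 2 proteins lay a median of 28.8 kb apart (quartiles 6.88 and 90.5 kb), 15.1% of the length of the gene. They overlapped in 80 of 661 genes (12.1%) and lay within 1000 nt in 105. The distance that independent placement would give was not computed.

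**Figure D5:**
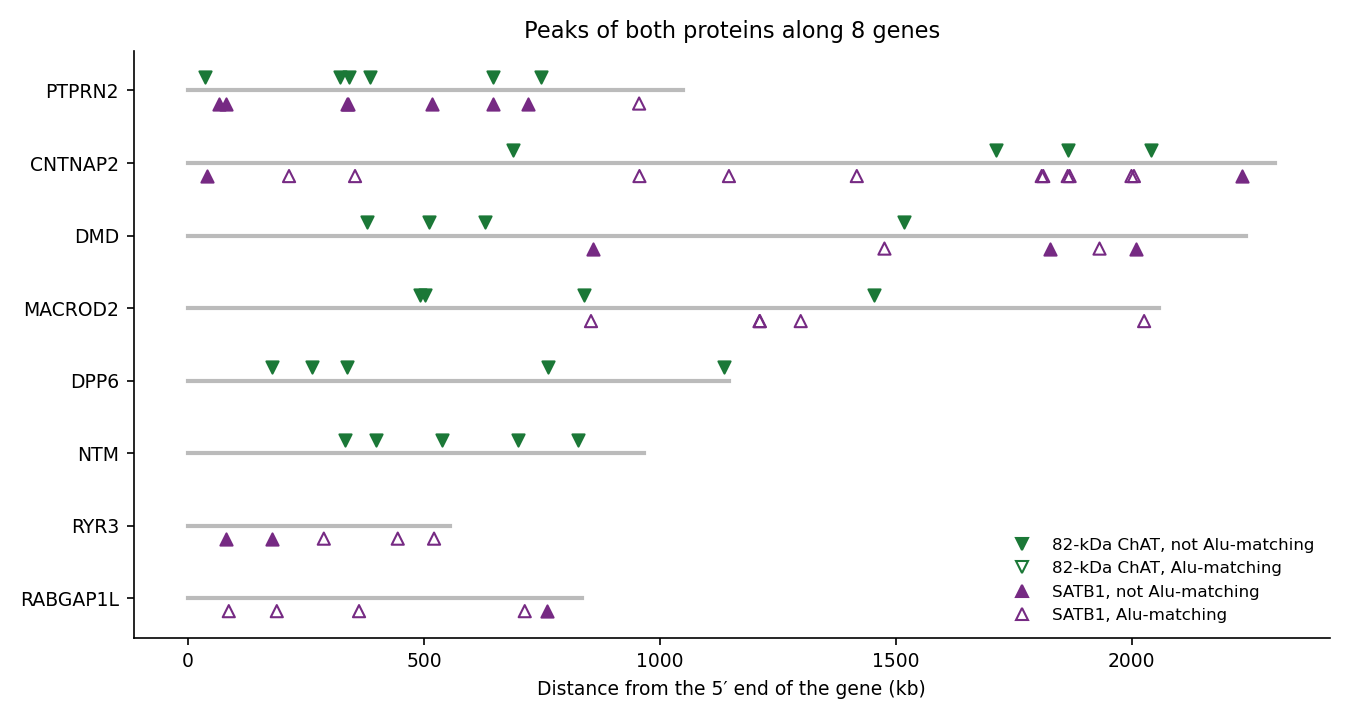
Positions of 82-kDa ChAT peaks (above the line) and SATB1 peaks (below) along 8 genes, in kb from the 5′ end of the gene, with open symbols for Alu-matching peaks. PTPRN2, CNTNAP2, DMD and MACROD2 hold both proteins, DPP6 and NTM only 82-kDa ChAT, and RYR3 and RABGAP1L only SATB1.

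Peaks at the same place were a small part of either list, and the number that independent placement would give was not computed. By at least 1 nt, 214 peaks of 82-kDa ChAT (3.402%, interval 2.97 to 3.88) overlapped SATB1 and 206 of SATB1 (3.54%, interval 3.08 to 4.05) overlapped 82-kDa ChAT. The 216 overlapping pairs had a median of 115 nt in common. Of the 1451 SATB1 peaks without an Alu match, 1273 overlapped no 82-kDa ChAT peak. Shared peaks differed in content from those of 1 protein. CATTC-rich sequence was found in 22.9% of the shared 82-kDa ChAT peaks and 2.96% of the others. Of the shared SATB1 peaks, 13.6% matched Alu, against 77.3% of the others. Self-repeating sequence (over 50% of the bases in a run of 10 nt that occurs again in the same peak) made up 42.1% of the shared 82-kDa ChAT peaks (interval 35.4 to 49.0) and 11.4% of the others. For SATB1 these values were 39.3% and 4.74%, and 20.7% of the others that did not match Alu were self-repeating. Shared peaks also lay more often within 5 Mb of a chromosome end, at 15.4% of the 82-kDa ChAT peaks (interval 10.9 to 21.0) against 9.15% of the others. Shared 82-kDa ChAT peaks had a median length of 134 nt and the others of 109 nt, while for SATB1 the medians were 138.5 and 134 nt. The part of length in these differences was not tested.

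In protein-coding genes 78 pairs overlapped, touching 80 genes, and 60 of the pairs neither matched Alu nor were CATTC-rich. Of these 60, 17 were self-repeating and 4 multi-copy. Ranked by the sum of both scores, which only serves to choose examples since scores are not comparable between lists, the first 10 genes among these 60 pairs were DOCK1, HMCN1, NARF, CDH18, DIAPH2, AGO3, GYG1, NAALADL2, CEP41 and ERICH1. DOCK1, an activator of Rac, held an 82-kDa ChAT peak at a score of 119 within a SATB1 peak at a score of 124, in intron 30. In HMCN1, an extracellular matrix protein, the pair lay in exon 85 with scores of 151 and 71.3, and in NAALADL2 it lay in intron 1 with scores of 110 and 68.6. The pairs in DIAPH2 (95.0 and 102), CDH18 (92.3 and 113) and GYG1 (106 and 80.4) nearly coincided, with 117, 129 and 140 nt in common, and their ends were complementary. The SATB1 peaks of the HMCN1 and MAGI2 pairs, printed below, also had complementary ends. Over all shared peaks of no repeat kind, complementary ends were found in 34 of 93 82-kDa ChAT peaks (36.6%, interval 26.8 to 47.2) and in 37 of 95 SATB1 peaks (38.9%, interval 29.1 to 49.5). The pair in NARF lay in exon 11 and was self-repeating, and the pair in ERICH1 was self-repeating and multi-copy. The 4 sequences below, at chr10:127339647-127339708 (DOCK1), chr1:186130681-186130771 (HMCN1), chr3:174873604-174873709 (NAALADL2) and chr7:78263707-78263784 (MAGI2), span both peaks, and capitals mark the bases in both (hg38, plus strand).
DOCK1: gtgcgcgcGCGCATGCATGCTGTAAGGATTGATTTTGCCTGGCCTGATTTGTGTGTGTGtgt
HMCN1: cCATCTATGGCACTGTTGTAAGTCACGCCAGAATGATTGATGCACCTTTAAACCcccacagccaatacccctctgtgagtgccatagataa
NAALADL2: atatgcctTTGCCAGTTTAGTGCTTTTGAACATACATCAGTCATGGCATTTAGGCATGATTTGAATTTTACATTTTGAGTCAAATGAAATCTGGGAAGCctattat
MAGI2: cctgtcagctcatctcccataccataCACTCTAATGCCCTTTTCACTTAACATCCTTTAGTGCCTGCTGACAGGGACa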

How the data were processed

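The values used were the peak lists that the authors deposited, 1 for each protein and treatment, with position and score on hg38. The authors mapped reads with BWA, called peaks with MACS, and subtracted an input made from cells of the same treatment. The deposited score follows the scale of MACS (−log10 p multiplied by 10) and its lowest value was 50.01 in both Aβ1–42 lists. The methods of the study give a range of read numbers common to all libraries but none for a single library, so the effect of depth on these counts is unknown. Scores rank peaks within a list only. Reads and inputs were not analysed here.

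A peak was assigned to every GENCODE 44 gene it touched by 1 nt, and introns and exons are those of MANE Select transcripts. Expected numbers of genes with both proteins were summed over 20 length classes of equal gene number. Alu matches were found with blastn 2.17.0 (e-value 1e-05) against a 287 nt Alu copy, and merged genome matches gave 1068753 copies. CATTC-rich meant at least 3 pentamers per 100 nt on either strand, and multi-copy meant that over 50% of 51-mers occurred more than once in the genome. Windows beside peaks began 1000 nt away. Named genes were the 8 with the most peaks of 1 protein alone, the 8 with the largest smaller count of both (ties to the shorter gene), the 10 with the strongest overlapping peaks outside Alu and CATTC, up to 3 per protein and class, and those the study names. Complementary ends, self-repeating peaks and distance to chromosome ends were examined after values were seen, and MAGI2 was added to the printed overlapping pairs in the same way. The members, classes and rules were chosen with earlier results of these data known. Steps were tested on simulated data. Python 3.11.15, pandas 2.3.3, scipy 1.17.1 and pysam 0.24.0 were used. Some peak sequences and 1 gene class are not reported here.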

Additional observations from a re-analysis of the deposited data

Results flagged for a closer look

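Peaks outside chromosomes 1 to 22 and X entered none of the comparisons. There were 273 such peaks for 82-kDa ChAT and 238 for SATB1 after Aβ1–42, on other chromosomes and on unplaced sequences of the assembly. Signal there was not part of the main measurement. The vehicle lists held 1226 such peaks for 82-kDa ChAT and 273 for SATB1, and this difference was not examined further.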

How the results depend on the processing

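No paired analysis was possible because there was 1 library for each protein and treatment. The ratio of genes with both proteins to the number expected from length, 1.21 over all genes, was 1.32 with peaks at or above the median score, 1.66 without Alu-matching peaks, 1.39 without multi-copy peaks, 1.12 in protein-coding genes only, 1.31 with 10 length classes, 1.12 with 100 and 1.11 with overlapping protein-coding genes joined. Because length still varied within classes, 1 is not the value that independent placement would give. Genes with 82-kDa ChAT only numbered 1501 at or above the median score, 1570 in protein-coding genes and 1378 with genes joined. Genes with SATB1 only numbered 1549 at or above the median score, 462 without Alu-matching peaks, 1051 without multi-copy peaks and 1499 with genes joined. Genes with both numbered 359, 298 and 458 under the first 3 of these settings. These settings use fewer peaks or fewer genes. The share of 82-kDa ChAT in all protein-coding genes was 47.3% at equal list size, 81.7% without Alu-matching peaks and 68.2% without multi-copy peaks. The class above the base was lost (0 classes) at or above the median score, without multi-copy peaks and with genes counted in place of peaks. The class below was lost (0 classes) at or above the median score and without Alu-matching peaks, where the MAP kinase cascade changed sides, from a share 24.3 percentage points under that of all genes to 1.59 above it. Overlapping 82-kDa ChAT peaks numbered 100 at or above the median score and 122 without self-repeating peaks, and their percent was 2.21 without self-repeating peaks, 2.71 without CATTC-rich peaks and 3.94 within 200 nt. The settings with 100 length classes, with length classes within each chromosome, with joined genes, and with multi-copy or self-repeating peaks left out were chosen after seeing the data. The peak midpoint, 2000 nt added upstream and chromosome Y added moved none of these results beyond counting error or 1.5 times. Few peaks per class limit the class shares, and the unknown depth of each single library limits every count.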
